A study of Mus musculus with 2 samples.

Results

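Methylated regions in mouse liver DNA were examined at the genes of the Wnt pathway that act at and just below the cell surface: Wnt ligands, Frizzled receptors, the co-receptor Lrp6, the secreted antagonists of the Dkk and Sfrp families, Axin2 and β-catenin (Ctnnb1). The genes were matched by symbol alone, by a rule that uses no measured value but was set with earlier results of these data known. Of the 14480 genes listed in at least 1 mouse, 23 matched. They were assigned 72 of 97063 regions in Pemt−/− and 92 of 131279 regions in Pemt+/+. Another 18 genes of the mouse genome carry matching symbols, among them Lrp5, Axin1, Wnt1 and Wnt2, and were not analysed here.

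The study compared liver of mice without and with Pemt, the enzyme that methylates phosphatidylethanolamine to phosphatidylcholine and consumes the methyl donor S-adenosylmethionine. Both libraries, 1 from a Pemt−/− mouse and 1 from a Pemt+/+ mouse, came from animals on HFHS chow, which is high in fat and sucrose, from 5 to 25 weeks of age according to the sample records. With 1 library per genotype there were no replicates and no test, so every comparison is of these 2 libraries and not of the genotypes. A kit enriched the methylated DNA for sequencing, and the authors listed the regions where reads (tags) piled up, with the transcripts lying within 10 kb.

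Wnt proteins are secreted, bind Frizzled receptors together with Lrp5 or Lrp6, and thereby stop the Axin scaffold from marking β-catenin for degradation, so that β-catenin reaches the nucleus and switches on target genes. Dkk proteins block the co-receptor, and Sfrp proteins bind the Wnt ligands themselves. In liver this pathway sets the programme of the hepatocytes around the central vein, and mutations of the β-catenin gene are frequent in liver tumors.

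None of the 23 genes had a region across a transcript 5′ end in either mouse. Among all listed genes, 1.84% in Pemt−/− and 2.43% in Pemt+/+ had such a region, which amounts to fewer than 1 gene in a set of this size. The sequence in front of the starts was rich in CpG, the dinucleotide at which mouse DNA is methylated. RefSeq (assembly GRCm38.p6) gave 20 promoters for 17 of the genes, and the 250 bases before the start held a median of 28.5 CpG, from 4 to 48, against a median of 6 over 32851 promoters. At least 15 CpG were present in 14 of the 20, or 70.0%, compared with 27.3% of all promoters. The 32851 promoters belong to 27025 genes, more than the 21900 protein-coding genes in RefSeq, so they include promoters of other genes. The Wnt pathway genes all code for proteins, so the 2 sets are not alike in this respect. The promoters of 4 genes, picked after the values were seen, are printed with each CpG in capitals. Dkk1 (chr19:30549497-30549746, minus strand, 6 CpG) had the highest share of Pemt−/− tags. Wnt5b had the most regions, and the most upstream of its 3 annotated starts is given (chr6:119544348-119544597, minus strand, 35 CpG). Its other starts had only 7 and 4 CpG. Fzd9 (chr5:135251048-135251297, minus strand, 42 CpG) had a region within 1 kb of its start, and Fzd1 (chr5:4758217-4758466, minus strand, 12 CpG) had the nearest region on the upstream side.
Dkk1: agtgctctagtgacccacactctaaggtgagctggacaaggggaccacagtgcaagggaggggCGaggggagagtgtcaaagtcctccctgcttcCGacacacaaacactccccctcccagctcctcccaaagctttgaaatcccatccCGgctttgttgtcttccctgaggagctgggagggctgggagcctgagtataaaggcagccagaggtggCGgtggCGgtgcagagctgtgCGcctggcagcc
Wnt5b: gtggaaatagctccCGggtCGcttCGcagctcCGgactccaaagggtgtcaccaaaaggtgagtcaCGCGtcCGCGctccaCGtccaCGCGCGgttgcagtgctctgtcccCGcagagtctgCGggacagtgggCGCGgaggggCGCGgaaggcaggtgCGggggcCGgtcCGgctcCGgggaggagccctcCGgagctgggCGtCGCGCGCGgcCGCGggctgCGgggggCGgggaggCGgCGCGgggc
Fzd9: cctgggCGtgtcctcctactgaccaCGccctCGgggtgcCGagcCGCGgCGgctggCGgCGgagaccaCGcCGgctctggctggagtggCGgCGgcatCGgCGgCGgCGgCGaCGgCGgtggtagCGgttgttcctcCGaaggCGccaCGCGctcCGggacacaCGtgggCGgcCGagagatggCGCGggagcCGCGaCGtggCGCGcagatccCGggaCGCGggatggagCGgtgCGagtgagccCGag
Fzd1: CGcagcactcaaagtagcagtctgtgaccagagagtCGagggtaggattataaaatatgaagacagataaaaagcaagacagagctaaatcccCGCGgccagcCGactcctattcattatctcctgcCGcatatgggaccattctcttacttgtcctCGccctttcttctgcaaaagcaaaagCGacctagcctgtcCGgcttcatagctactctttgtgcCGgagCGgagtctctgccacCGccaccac
The lists use the older build mm9, and in their annotation no region lay within 250 bp in front of the listed transcripts of the 4 genes. All further positions are in mm9.

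The regions of the Wnt pathway genes had slightly fewer tags than regions in general. They held from 8 to 71 tags in Pemt−/− with a median of 12, and from 9 to 82 tags in Pemt+/+ with a median of 15. Over all regions the medians were 13 and 17 tags. The fold enrichment over background had a median of 14.4 in Pemt−/− and 15.3 in Pemt+/+, close to 16.9 and 16.5 over all regions. Inside a transcript lay 42 of the 72 regions in Pemt−/− (58.3%) and 54 of the 92 in Pemt+/+ (58.7%), compared with 71.3% and 70.7% of all pairs of a region and a gene. The remainder were upstream in 18.1% and 17.4%, and downstream in 23.6% and 21.7%. Regions across a transcript 3′ end were found in Pemt+/+ at Axin2 (27 tags) and Wnt4 (20 tags) and at no Wnt pathway gene in Pemt−/−, with 5.56% and 4.76% of all listed genes having such a region. The counterpart of the Wnt4 region in Pemt−/− held 12 tags and ended inside the transcript.

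Summed over the genes there were 1042 tags in Pemt−/− and 1696 in Pemt+/+. Pemt−/− therefore contributed 38.1% of the tags (95% Wilson interval 36.3 to 39.9%, which covers counting error only), compared with 35.6% over all genes. All regions of the lists summed to 1582080 tags for Pemt−/− and to 2847831 for Pemt+/+, and the depth of the libraries is not known from them, so that depth and genotype cannot be told apart. For this reason tags were also put on a common scale. For 79393 regions paired between the mice, tags in Pemt−/− were at the median 0.682 of those in Pemt+/+, and the ratio of a gene divided by this value is called its scaled ratio. Of 12608 genes listed in both mice with at least 20 tags, 6.31% were at least 1.5-fold higher in Pemt−/− on this scale and 26.8% at least 1.5-fold lower. Of the 20 Wnt pathway genes in this set, 3 were higher (Dkk1, Fzd7 and Lrp6) and 2 lower (Wnt5b and Wnt7a). The median scaled ratio was 0.979 for these 20 genes and 0.828 for all. The names depended on the regions counted, and Dkk1 alone stayed higher under all 7 alternatives of list, minimum, scaling and pairing of regions. Several of these could not undo the call at Dkk1. A minimum of 40 tags and overlapping regions alone left its 45 and 34 tags unchanged, and scaling by tag totals could only raise its ratio. Without regions also assigned to another gene, Dkk1 kept 14 and 10 tags.

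**Figure D1:**
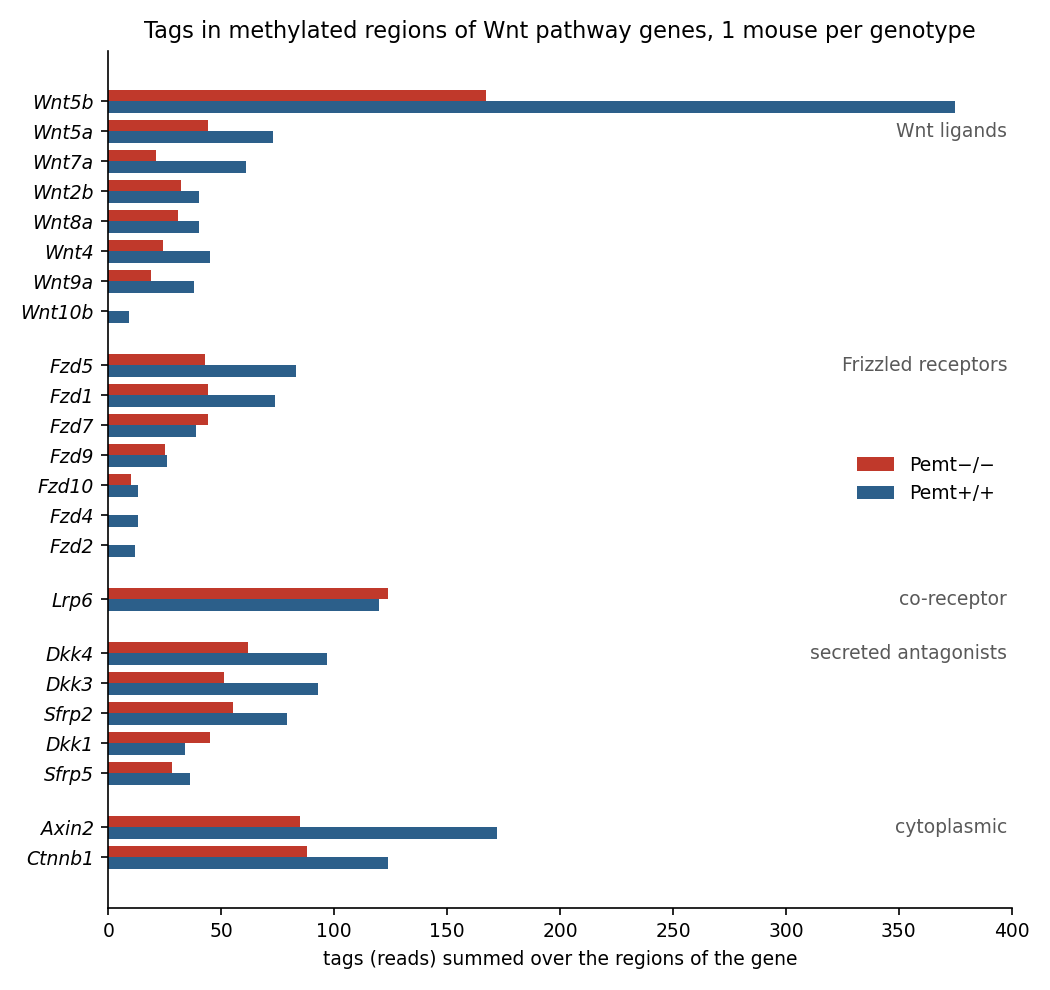
Tags summed over the regions of each gene (x axis, number of reads) in 1 Pemt−/− mouse (red) and 1 Pemt+/+ mouse (blue), with genes grouped by role. Wnt5b reached 375 tags in Pemt+/+, and Dkk1, Fzd7 and Lrp6 are the genes with more tags in Pemt−/−.

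Among the ligands, Wnt5b, which signals mainly without β-catenin, carried the most methylated regions. It had 13 regions with 167 tags in Pemt−/− and 18 regions with 375 tags in Pemt+/+. The Pemt−/− share was 30.8% (27.1 to 34.8%), with 25.2% of the 12608 genes lower, and the scaled ratio was 0.653. More regions than at Wnt5b were found at 4.14% of all genes in Pemt−/− and 3.91% in Pemt+/+. Wnt5b is also long, and per 10 kb of gene and flanks it had 0.983 and 1.36 regions, fewer than the compact antagonist genes Sfrp2 with 1.75 in both mice and Dkk4 with 1.64 and 2.05. The 11 regions that overlapped between the mice held 148 and 247 tags, a Pemt−/− share of 37.5%. Another 7 regions with 128 tags were listed in Pemt+/+ only, and 2 regions with 19 tags in Pemt−/− only, so the low share of the gene rested largely on regions found in one mouse. Wnt5b was not called lower on overlapping regions alone, with lists of equal size, with transcript-only regions or when scaled by tag totals.

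Individual regions within Wnt5b varied widely. In the middle of the gene the region chr6:119435896-119436201 held 11 tags in Pemt−/− against 38 in the longer counterpart chr6:119435901-119436477 in Pemt+/+, a share of 22.4% (13.0 to 35.9%), and only 0.588% of all pairs had a lower share. The pair near the 3′ end, starting at 119383242 in Pemt−/−, held 15 and 36 tags. By contrast, the pair starting at 119459478 held 26 and 36 tags and the pair starting at 119473116 held 16 and 18, both above the common ratio. The region with most tags listed in Pemt+/+ only, chr6:119487899-119488374, lay toward the 5′ side and held 36 tags.

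**Figure D2:**
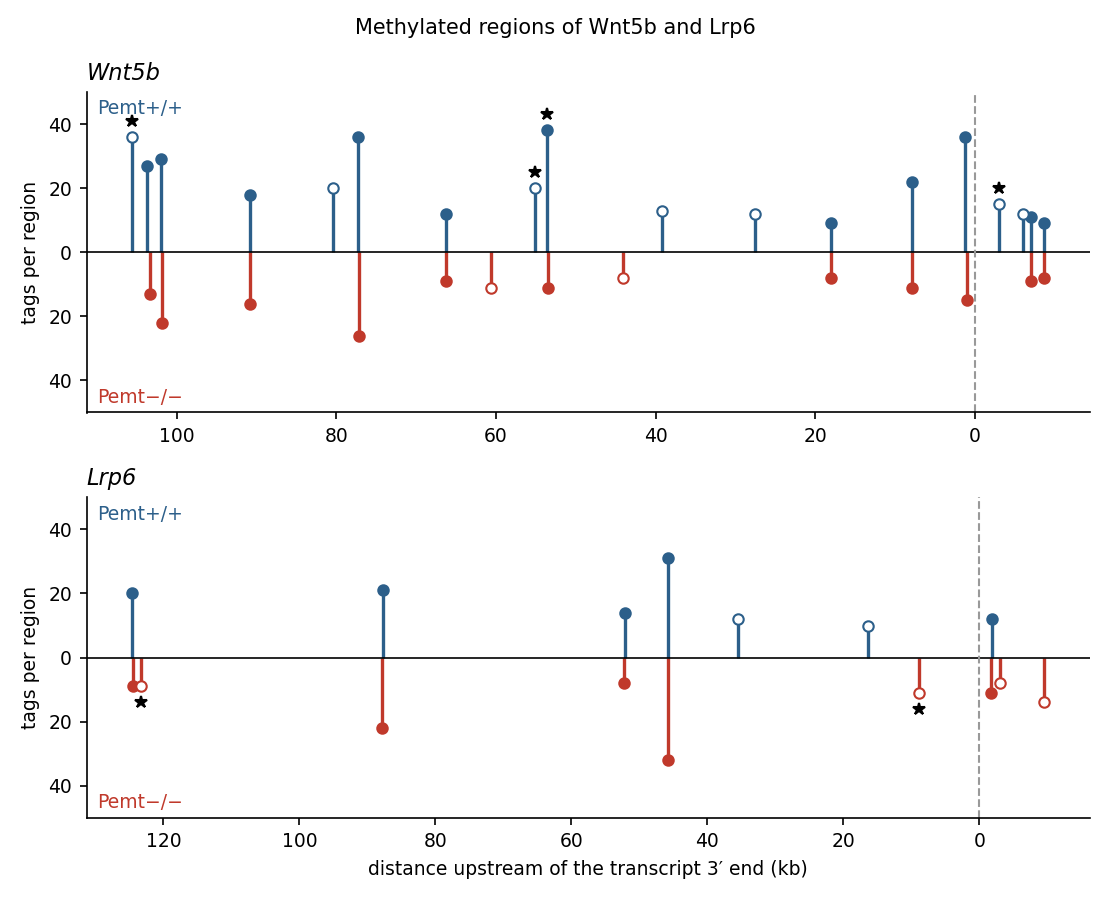
Tags of each region of Wnt5b (top) and Lrp6 (bottom) against the distance of its centre upstream of the transcript 3′ end (x axis, kb), with Pemt+/+ drawn upward and Pemt−/− downward. Filled circles overlap a region of the other mouse, open circles do not, stars mark regions also in the shorter lists, and Wnt5b shows 7 open circles in Pemt+/+ against 2 in Pemt−/−, whereas Lrp6 shows 2 and 4.

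Wnt7a, a ligand with roles in development, had the lowest Pemt−/− share of the 20 genes listed in both mice. Its 2 regions in Pemt−/− held 21 tags and its 4 regions in Pemt+/+ held 61, a share of 25.6% (17.4 to 36.0%) and a scaled ratio of 0.505. The 2 pairs themselves held 13 and 19 tags, and 8 and 11 tags, which is near the common ratio. The difference lay in regions of 19 and 12 tags listed in Pemt+/+ only, and on overlapping regions alone Wnt7a was within 1.5-fold.

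Wnt8a, a ligand of the early embryo, showed the opposite arrangement. Its region chr18:34692927-34693257, located 8724 bp upstream of the transcript, held 22 tags in Pemt−/− and 10 tags in its counterpart in Pemt+/+. The share was 68.8% (51.4 to 82.0%), and 0.0416% of all 79393 pairs had a higher one. Over the whole gene the tags were 31 and 40, because a region of 9 tags was found in Pemt−/− only and regions of 14 and 16 tags in Pemt+/+ only. Wnt8a was within 1.5-fold on these sums, and higher on overlapping regions alone and with lists of equal size.

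The remaining ligands were within 1.5-fold with all regions counted. Wnt5a had 44 Pemt−/− tags and 73 Pemt+/+ tags, Wnt2b 32 and 40, Wnt4 24 and 45, and Wnt9a 19 and 38. These values moved with the regions counted. Wnt5a was lower without regions also assigned to another gene, with 16 and 57 tags, and higher with transcript-only regions, with 28 and 26. Wnt2b was higher with transcript-only regions, with 22 and 15 tags, and with lists of equal size, but lower in the upper 50% of the lists by score, with 10 and 25. Wnt4 was lower with transcript-only regions, with 12 and 31 tags. At Wnt2b the pair just beyond the transcript 3′ end held 10 and 25 tags, with 5.12% of all pairs lower. Wnt10b, an activator of β-catenin signalling, was listed in Pemt+/+ only, with 1 downstream region of 9 tags that was also assigned to Arf3. Together the ligands had 338 Pemt−/− tags and 681 Pemt+/+ tags, and the Pemt−/− share was 33.2% (30.3 to 36.1%).

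The Frizzled receptors had fewer regions, 11 in Pemt−/− and 15 in Pemt+/+, with 166 and 260 tags and a Pemt−/− share of 39.0% (34.5 to 43.7%). Fzd5 had the most over both mice, with 43 Pemt−/− tags and 83 Pemt+/+ tags, and was within 1.5-fold with a scaled ratio of 0.760. Its direction turned with the regions counted, since it was lower in the upper 50% of the lists by score, with 21 and 48 tags, and higher with transcript-only regions, with 22 and 20. Most of its regions were also assigned to the neighbouring gene Ccnyl1. Fzd1 held 44 and 74 tags, Fzd9 25 and 26, and Fzd10 10 and 13. Fzd1 was higher in the upper 50% of the lists by score, with 44 and 34 tags. Fzd9 was higher with transcript-only regions and on overlapping regions alone, each with 17 and 15 tags, and when scaled by tag totals, but most of its tags were also assigned to Baz1b and without those it had 0 and 11.

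Fzd7, a receptor of stem and progenitor cells in several tissues, had 44 Pemt−/− tags and 39 Pemt+/+ tags. Its share was 53.0% (42.4 to 63.4%), with 95.6% of genes lower, and its scaled ratio was 1.65. The overlapping pairs held 21 and 25 tags, and 9 and 14 tags. The remaining 14 Pemt−/− tags came from chr1:59536307-59536981, a region 2009 bp upstream of the transcript that was not listed in Pemt+/+. The call at Fzd7 thus rested on 1 region, and was absent on overlapping regions alone and in the upper 50% of the lists by score.

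Fzd2 and Fzd4 were listed in Pemt+/+ only, each with 1 region, of 12 and 13 tags. With Wnt10b, 3 of the 23 genes (13.0%) were listed in Pemt+/+ and not in Pemt−/−, and none the other way round, while over all genes the shares were 9.73% and 2.31%. The 3 regions were near the lowest number of tags in the Pemt+/+ list, which was 9, and methylation below the limit of the Pemt−/− list was not detectable.

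Lrp6, the co-receptor that Dkk1 blocks, had 124 Pemt−/− tags and 120 Pemt+/+ tags. It had 9 regions in Pemt−/− and 7 in Pemt+/+ although the Pemt−/− list holds fewer regions overall. The share was 50.8% (44.6 to 57.0%), with 93.9% of genes lower, and the scaled ratio was 1.52, just past the limit. The 5 overlapping pairs held 82 and 98 tags, a share of 45.6%. The pair with most tags, chr6:134445898-134446604 in Pemt−/−, held 32 tags against 31, and the pair starting at 134487917 held 22 against 21, whereas the pair 7795 bp upstream of the transcript held 9 against 20. Regions found in Pemt−/− only numbered 4 with 42 tags, and in Pemt+/+ only 2 with 22 tags. The downstream regions of 14, 11 and 8 tags in Pemt−/− were also assigned to Bcl2l14, and without regions assigned to another gene Lrp6 had 91 and 108 tags, a scaled ratio of 1.24 that was within 1.5-fold. Lrp6 was not called higher on overlapping regions alone or with transcript-only regions either.

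The secreted antagonists had 241 Pemt−/− tags and 339 Pemt+/+ tags. Their Pemt−/− share was 41.6% (37.6 to 45.6%), and 15 of their 16 Pemt−/− regions and 15 of their 20 Pemt+/+ regions overlapped a region of the other mouse, where 83.3% and 61.6% of all regions did. Dkk4 held the most, 62 and 97 tags over 4 and 5 regions. Dkk4, itself a target gene of β-catenin, was within 1.5-fold with a scaled ratio of 0.937. Its pair 8832 bp upstream had 15 Pemt−/− and 12 Pemt+/+ tags, the pair starting at 23730573 held 25 and 30, and the pair inside the transcript held 9 and 21. The direction thus differed between regions of the same gene, and with transcript-only regions Dkk4 was lower, with 9 and 38 tags.

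Dkk1 was the gene with the highest Pemt−/− share. Its 45 Pemt−/− tags stood against 34 Pemt+/+ tags. The share was 57.0% (46.0 to 67.3%), with 97.5% of genes lower, and the scaled ratio was 1.94. All 3 regions overlapped between the mice and all 3 held more tags in Pemt−/−. Inside the transcript chr19:30622444-30622742 held 18 tags against 15 and chr19:30621650-30622126 held 13 against 9, and chr19:30630638-30630960, 6652 bp upstream, held 14 against 10. Of all pairs, 10.4% held more tags in Pemt−/−. The regions inside the transcript were also assigned to Gm5972, and the upstream region, assigned to Dkk1 alone, had a scaled ratio of 2.05.

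Dkk3, a divergent member of the family, held 51 and 93 tags. Its 3 pairs held 51 and 63 tags and a further 3 regions with 30 tags were found in Pemt+/+ only. Dkk3 was lower with transcript-only regions, with 25 and 57 tags, and without regions also assigned to another gene, but higher in the upper 50% of the lists by score, with 51 and 50. That last call passed 1.5-fold only on the common ratio recomputed from the cut lists. Sfrp2 held 55 and 79 tags over 5 regions in each mouse, and its pairs moved both ways. Inside the transcript they held 9 and 20 tags, and 11 and 24, while downstream they held 13 and 13, and 14 and 10. With lists of equal size Sfrp2 was higher, with 55 and 56 tags and a scaled ratio of 1.51. It passed 1.5-fold there only on the common ratio recomputed from the cut lists. Sfrp5 had 1 region, 2970 bp upstream in Pemt−/−, with 28 and 36 tags.

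**Figure D3:**
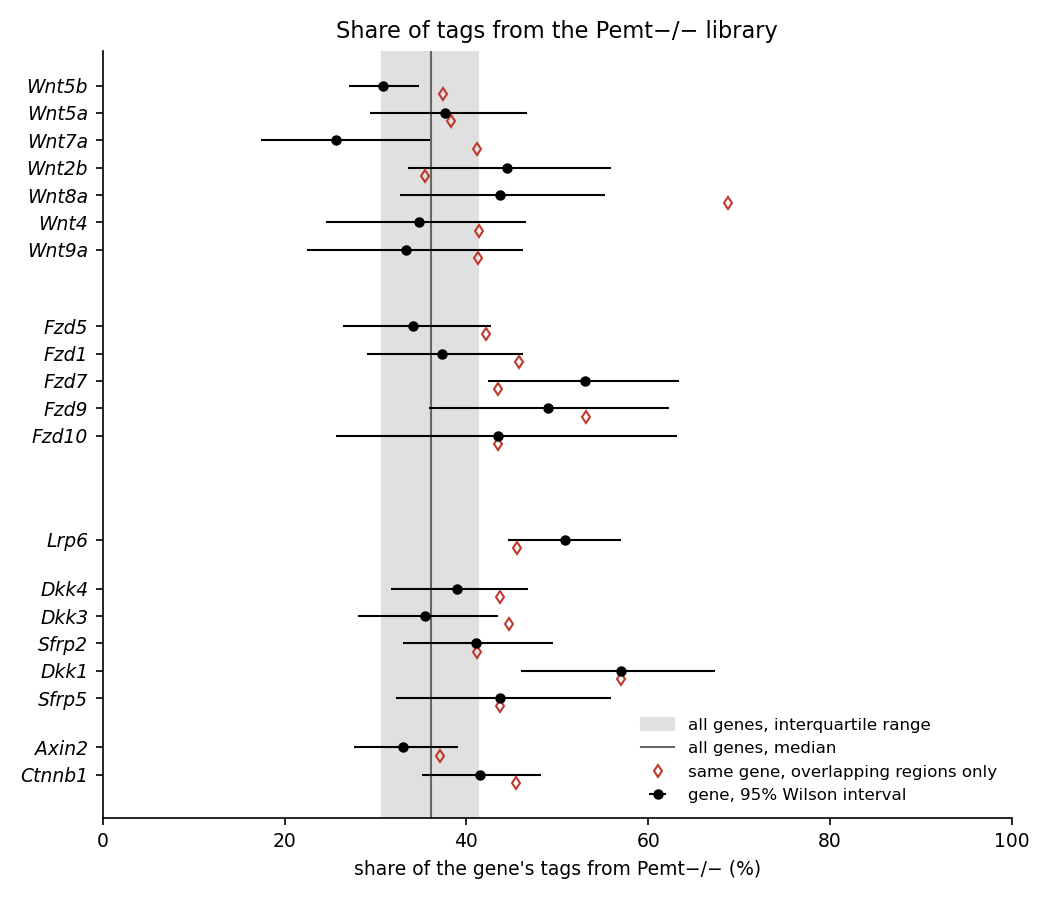
Share of tags from Pemt−/− for each gene listed in both mice (x axis, percent; black points with 95% Wilson intervals, counting error only) and for its overlapping regions alone (red diamonds). The line and band give the median of 36.1% and interquartile range (30.8 to 41.3%) of 12608 genes, and Dkk1, Fzd7 and Lrp6 have intervals above the band while every other interval overlaps it.

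In the cytoplasm, β-catenin is held by the Axin scaffold, and Axin2 is also a target gene that feeds back on the pathway. Axin2 held 85 tags over 6 regions in Pemt−/− and 172 tags over 8 regions in Pemt+/+. The share of 33.1% (27.6 to 39.0%) was the third lowest of the 20 genes listed in both mice. The scaled ratio of 0.725 was within 1.5-fold, but in the upper 50% of the lists by score Axin2 had 29 and 103 tags and was lower. The 4 overlapping pairs held 56 and 95 tags, and the regions listed in one mouse held 29 and 77 tags. At the pair starting at 108810454, 16 tags stood against 33, and at the pair upstream of the gene 19 stood against 25.

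Ctnnb1 had 88 Pemt−/− tags and 124 Pemt+/+ tags. The share was 41.5% (35.1 to 48.2%) and the scaled ratio 1.04. Most of these tags lay in 1 region, the region with most tags of all 23 genes. It spanned chr9:120838695-120840078 in Pemt−/− with 71 tags and chr9:120839074-120840253 in Pemt+/+ with 82 tags, and ended 2514 bp and 2339 bp upstream of the transcript. The regions inside Ctnnb1 were weak, with 8 and 9 tags in Pemt−/− and 13 to 15 tags in Pemt+/+. On these alone Ctnnb1 was lower, with 17 and 42 tags and a scaled ratio of 0.594.

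Because much of the difference between the mice came from regions listed in one of them, sharing was examined next. Of the Pemt−/− regions, 56 of 72 (77.8%, interval 66.9 to 85.8%) overlapped a Pemt+/+ region, compared with 83.3% of all regions. In the other direction it was 56 of 92 (60.9%, interval 50.7 to 70.2%), compared with 61.6%. Both shares of all regions lay within the intervals. A region found in Pemt−/− only was present at 11 of 20 genes, with 44.8% of all genes having one, and a region found in Pemt+/+ only at 18 of 23 genes, with 75.7% of all genes. The 16 regions of Pemt−/− only held 168 tags, at most 19 in a region, and the 36 regions of Pemt+/+ only held 522 tags, at most 36.

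The 56 pairs had 874 Pemt−/− tags and 1174 Pemt+/+ tags, so that the Pemt−/− share was 42.7% (40.5 to 44.8%), compared with 39.9% over all pairs. The median ratio was 0.762, from 0.289 to 2.20, against 0.682. More tags in Pemt−/− were found in 9 pairs (16.1%), which belonged to Dkk1 (3 pairs), Lrp6 (2), Wnt8a, Dkk4, Fzd9 and Sfrp2. On overlapping regions alone, 16 of 20 genes had a share above the median gene of 40.3%. They included all 5 Frizzled receptors, from 42.2 to 53.1%, and all 5 antagonists, from 41.2 to 57.0%, but 4 of 7 ligands. The regions are few and the intervals of most of these genes overlap the median gene.

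**Figure D4:**
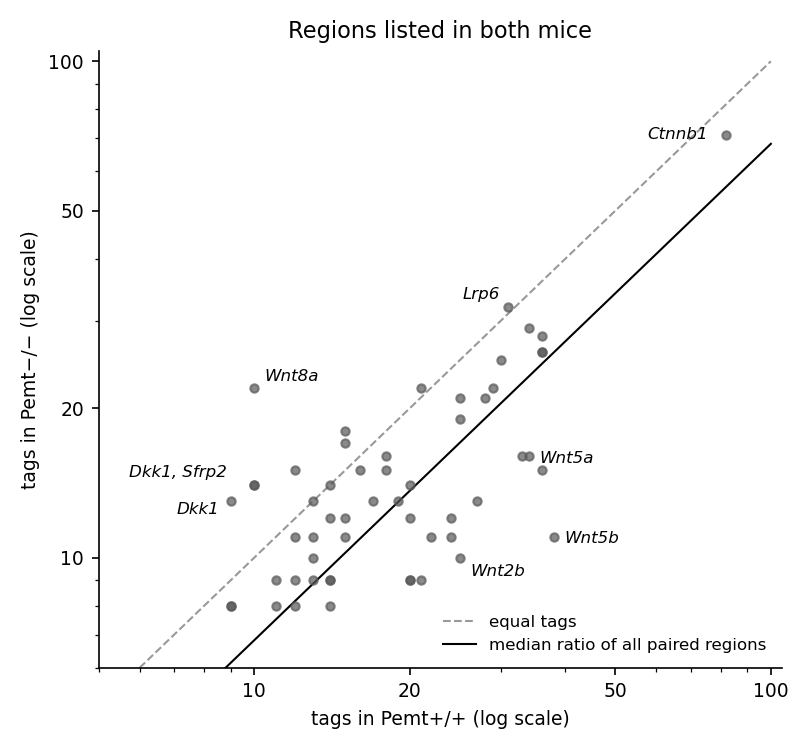
Tags of the 56 regions that overlapped between the mice, in Pemt+/+ (x axis) and Pemt−/− (y axis), both on log scales. The solid line is the median ratio of 0.682 over all pairs and the dashed line marks equal tags, with Wnt8a (22 against 10 tags) farthest above and Wnt5b (11 against 38) farthest below.

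The distance from the transcript start could be derived from the lists for 14 of the genes. A start was derived only where a region was listed upstream of the transcript, within 10 kb, here and for all genes. The shares and medians below hold for such genes only. A region lay within 1 kb of the start at 3 of them (21.4%), compared with 16.4% of 7421 genes. These were Wnt8a at 556 bp in Pemt−/−, Dkk4 at 839 bp in Pemt+/+ and Fzd9 at 959 bp in Pemt+/+, all inside the transcript. The median distance of the nearest region was 2174 bp, compared with 3074 bp over all genes. Upstream of the start the nearest region was that of Fzd1, 1512 bp away in Pemt−/− with 15 tags and 1439 bp away in Pemt+/+ with 18 tags, and it was the only region within 2 kb upstream in each mouse.

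**Figure D5:**
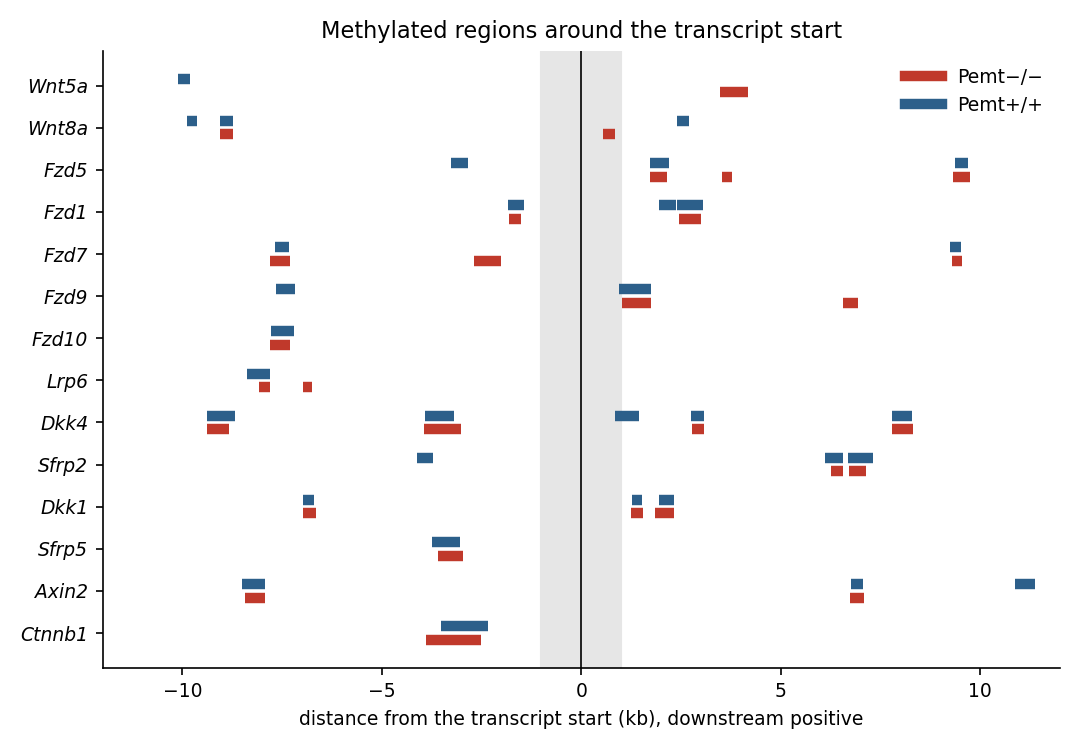
Regions of 14 genes against the distance from the transcript start (x axis, kb, downstream positive) in Pemt−/− (red) and Pemt+/+ (blue), with the kilobase on either side of the start shaded. No bar crosses the start, and bars enter the shaded zone on the downstream side only, at Wnt8a, Dkk4 and Fzd9.

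The authors also deposited a shorter list of regions for each mouse, with a false discovery rate (FDR) for each region. It is not a plain cut of the longer list, because the same region carried another fold enrichment there. The Wnt5b region starting at 119437526 had 10.9 in the longer and 36.7 in the shorter Pemt+/+ list. At the Wnt8a region starting at 34692927 the values were 30.3 and 6.27 in Pemt−/−. In the shorter Pemt−/− list were 2 of 20 genes, compared with 9.06% of all listed genes. They were Lrp6, with regions of 9 and 11 tags, and Wnt8a, with the upstream region of 22 tags, and each had an FDR of 100%. In the Pemt+/+ list were 3 of 23 genes (13.0%), compared with 19.2%. Wnt5b had 4 such regions, with 15, 20, 36 and 38 tags, Wnt7a had 1 with 19 tags and Wnt8a had 1 with 14 tags, at an FDR of 30.2 to 33.3%. Wnt8a was the gene in both, with different regions.

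Other genes of the pathway were counted from a list of 58 genes, including Wnt secretion factors, R-spondins and their receptors, the destruction complex and nuclear partners of β-catenin. Of these, 47 were listed, 45 had at least 20 tags and 42 of them were listed in both mice. Of the 42, none was at least 1.5-fold higher in Pemt−/− and 14 (33.3%) were lower, against 6.31% and 26.8% of all genes. The median share was 35.9%. The lowest shares belonged to Cer1, a secreted antagonist, with 23 and 139 tags, and to Dvl2, which relays the signal from Frizzled, with 13 and 72 tags. On overlapping regions alone Cer1 stayed lower with a scaled ratio of 0.203 and Dvl2 was within 1.5-fold with 13 and 21 tags. On these regions 4 genes of the list were lower, 1 higher and 35 within, against 5.61% lower and 5.75% higher of all genes. None of the 47 genes had a region across a transcript 5′ end. Of 15 target genes of the pathway in hepatocytes around the central vein, 12 were listed, none was higher and 4 (33.3%) were lower, with a median share of 34.0%. These were Glul, glutamine synthetase, with 27 tags in Pemt−/− and 82 in Pemt+/+, Rnf43 with 25 and 93, Notum with 12 and 50, and Oat with 12 and 35. On overlapping regions alone Notum stayed lower with 12 and 30 tags, while Glul with 18 and 29, Rnf43 with 25 and 42 and Oat with 12 and 19 were within 1.5-fold. Among the other target genes, Tbx3 was then lower with 15 and 35 tags and Slc1a2 higher with 13 and 10. That made 2 of the 12 lower and 1 higher, beside 5.61% and 5.75% of all genes. The 2 lists have 4 genes in common. The lists hold DNA regions and no RNA levels, so expression of these genes and the cell types of the tissue were not measured.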

How the data were processed

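Liver DNA of 1 Pemt−/− and 1 Pemt+/+ mouse was enriched for methylated DNA and sequenced. The submitters' processing notes name CASAVA 1.8.2, Bowtie and the build mm9, and the region names are those of MACS, whose settings and control are not given in the sources used here. The sample records mention bisulphite conversion before the capture and livers at 25 weeks of age, while the Methods give no conversion and place livers taken after 1 to 4 weeks on HFHS chow before this step. Duplicate reads and the control would change tag numbers, and their handling is not given.

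Tags in the deposited lists are counts of reads per region. The deposited fold enrichment is a ratio to background reads. For p-values the authors deposited a score, 10 times −log10, with a minimum of 50, and the FDR is deposited as a percent. Region lengths, positions and distances are in bp.

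Each region was counted once per gene, by the symbol in the lists. The genes and gene lists were chosen with earlier results of these data known. Overlaps of at least 1 bp were computed with bedtools 2.31.1, and the rest with Python 3.11.15, pandas 2.3.3, numpy 2.4.6, scipy 1.17.1 and matplotlib 3.10.9. Shares carry 95% Wilson intervals, which cover counting error only. Reads of the libraries were not totalled in the lists, so no test was run. Promoters came from RefSeq (GRCm38.p6) and were available for 17 of the genes. All 23 genes were matched by gene identifier to RefSeq genes, and no mm9 sequence was used here. Starts were derived from the distances in the lists. The strand was that of RefSeq in 14 of 14 transcripts checked, among them transcripts of Wnt2b, Wnt4 and Wnt5b without a derived start. Dkk4, Lrp6, Wnt5a and Wnt8a had a derived start but no RefSeq promoter, and their strand was not checked. Calculations were tested on simulated data.

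Named with values were the genes with most tags in each role, those in a shorter list, the 3 highest and 3 lowest shares among genes of at least 20 tags, genes absent from a mouse's list, and the co-receptor and cytoplasmic genes. By that rule promoters were to be shown where a region covered the start. No gene met it, so the 4 shown, and the other genes given with values, were chosen afterwards. Alternatives were stricter, equal-sized or transcript-only lists, a 50% overlap, a minimum of 40 tags, scaling by tag totals, paired regions and an FDR limit of 50%.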

Additional observations from a re-analysis of the deposited data

How the results depend on the processing

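Each alternative changed 1 choice, but cutting the lists also changed the pairs and the common ratio computed from them. Of 66 recomputed values, 46 stayed within 1.5 times the reported count or inside the 95% interval of the reported share. Some of the 46 could not have moved. The count of 0 genes with a region across a transcript 5′ end was redone only in subsets of the regions, where it could not rise. With lists of equal size only the Pemt+/+ list was cut, so the 72 Pemt−/− regions were fixed. With the upper 50% of each list by score, 29 regions remained in Pemt−/− and 34 in Pemt+/+, 65.5% of the Pemt−/− regions were shared, 7 genes had a region in Pemt+/+ only and 4 genes were higher and 4 lower in Pemt−/−, 26.7% of the genes each way against 8.95% and 27.4% of all genes. With lists of equal size, 61.1% of the Pemt−/− regions were shared, the Pemt−/− tag share was 43.2%, and 6 genes (33.3%) were higher and 1 (5.56%) lower. The split of all genes then moved to 14.6% higher and 12.9% lower. With regions inside or overlapping a transcript only, there were 42 and 56 regions, the tag share was 35.3%, and 5 genes were higher and 5 lower, 29.4% each way against 7.09% and 23.8% of all genes, with Fzd7 and Lrp6 not among the higher. Scaled by tag totals (ratio 0.556), 1 gene was lower, and the split of all genes was 13.7% higher and 14.4% lower. With paired regions only, 0 genes were lower, and all genes split into 5.75% higher and 5.61% lower. At an FDR of at most 50%, 0 genes remained in the shorter Pemt−/− list. The other settings were chosen after seeing the data. The tag share over paired regions was 42.7%, without Wnt5b 1 gene was lower, and with regions assigned to no other gene 4 were lower (Dkk3, Wnt5a, Wnt5b and Wnt7a), 22.2% against 24.6% of all genes. The cause of these shifts was not tested. No paired analysis was possible because only 1 library stood for a genotype, and for the same reason no replicate could be left out. With medians of 12 and 15 tags per region, a difference in 1 region is mostly within counting error.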
